A study of Homo sapiens with 4 samples.

Results

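The voltage-gated sodium channel alpha subunits are the pore proteins that carry the upstroke of the action potential. The 8 genes SCN1A, SCN2A, SCN3A, SCN4A, SCN8A, SCN9A, SCN10A and SCN11A were taken by their symbols from the 36601 features of each count table, and all 8 had a row. They held 35437 unique molecular identifiers (UMIs, each marking 1 captured transcript) in the 14812 nuclei that carry an annotation, while the tables held 4846 to 8531 nuclei per sample, the rest being marked as low quality. Single-nucleus RNA sequencing was run on stage 1 enteric ganglioids, free-floating neural clusters grown in suspension from H9, an established human embryonic stem cell line. The 2 control samples had no added compound. The 2 PP121 samples received 2 µM PP121, a multi-target inhibitor of receptor tyrosine kinases, from day 15 to day 20. The cell metadata date replicate 1 of both groups to day 42 and replicate 2 of both groups to day 38, so the replicate number and the day cannot be told apart. The study's text gives a single day for all ganglioids that is neither of these. A further metadata column names both control files differently from their labels, 1 by another replicate number and 1 by another stage. The labels were used throughout, and every day comparison and replicate block below rests on the dates in the metadata. Where 4 values are given together below, the control samples come first and replicate 1 precedes replicate 2. Each sample was a pool of ganglioids from this 1 cell line. The labels number differentiation replicates 1 and 2. Whether the control and PP121 samples of 1 number came from the same differentiation was not given. The p-values therefore cover no spread beyond these samples.

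Each alpha subunit folds into 4 homologous domains around a single pore, opens on depolarization and closes again within milliseconds by fast inactivation. The genes differ in where and when they act: SCN3A dominates the embryonic nervous system, SCN2A and SCN8A serve axon initial segments and nodes of Ranvier, and SCN1A is best known from inhibitory interneurons of the brain. SCN9A, SCN10A and SCN11A are the channels of peripheral neurons, with SCN9A and SCN11A known in enteric neurons, while SCN4A is the channel of skeletal muscle.

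A classical division of the family rests on tetrodotoxin, the pufferfish toxin that plugs the outer pore. The residue that decides high or low affinity lies in the pore loop of domain I, directly after the aspartate of the selectivity filter, and is aromatic in sensitive channels and a serine in the resistant channels SCN10A and SCN11A. The 30 coding bases around this codon are shown for 7 members because they sort them into the groups used below. Capitals mark the codon of that residue. Sequences run 5′ to 3′ on the coding strand, from GRCh38 with the GENCODE release 29 annotation, and each lies within 1 exon.
SCN2A: cgtctcatgactcaagacTTCtgggaaaac
SCN3A: cgactcatgactcaagacTACtgggaaaat
SCN4A: cgcctcatgacacaggacTATtgggagaac
SCN8A: cgccttatgacccaggacTATtgggaaaac
SCN9A: aggctaatgacccaagatTACtgggaaaac
SCN10A: cgcctcatgacacaggatTCCtgggaacgc
SCN11A: cggctgatgacccaagatTCCtgggagaag
Both serine codons were TCC, in SCN10A and SCN11A. The aromatic codons were TTC in SCN2A, TAC in SCN3A and SCN9A, and TAT in SCN4A and SCN8A. Any pair of these members differed at 3 to 8 of the 30 bases.

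The windows lie on 4 chromosomes. On chromosome 2 lie SCN3A at chr2:165155774-165155803 in exon 10 on the minus strand, SCN2A at chr2:165313720-165313749 in exon 9 on the plus strand and SCN9A at chr2:166293243-166293272 in exon 9 on the minus strand. The serine-codon pair lies on the minus strand of chromosome 3, SCN10A at chr3:38757030-38757059 in exon 9 and SCN11A at chr3:38910078-38910107 in exon 8. SCN8A lies at chr12:51702873-51702902 in exon 8 on the plus strand, and SCN4A at chr17:63966114-63966143 in exon 8 on the minus strand. The annotated loci of SCN2A (chr2:165194993-165392310) and SCN3A (chr2:165087522-165204067) overlap on opposite strands. Whether the counting used strand and introns was not given in the sources used here, so counts in overlapping loci cannot be told apart by strand.

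The 4 samples held 2912 to 4587 annotated nuclei each, with 23348045 to 34123759 UMIs and a median of 6289 to 7071 UMIs per nucleus, and pairs of samples shared 0 to 8 barcodes. The authors' annotation named 6557 enteric neurons, 2892 Progenitor 1 and 3800 Progenitor 2 nuclei. In the enteric neuron class a pan-neuronal marker list summed to 1893 to 2427 CPM, the count of a gene scaled to a fixed total of UMIs of the class. It summed to 496 to 713 CPM in Progenitor 1 and 657 to 824 CPM in Progenitor 2. DCX of this list was also among the authors' annotation genes for neurons, so these sums do not test the class name. Of the enteric lineage list, HAND2 had 3 UMIs in all neurons, and RET, the GDNF receptor, was at 1.19 to 1.71 CPM. Progenitor and glia markers summed to 382 to 671 CPM in the neurons, among them PAX3, a factor of neural crest and dorsal neural tube, at 115 to 211 CPM. A mesenchymal list stood at 7.72 to 46.1 CPM in the neurons, and 40, 408, 33 and 422 nuclei of the samples were annotated as mesenchymal. The part of other cell types in the results below was not tested. No comparison between annotated classes was tested, because the classes were built from the same expression values. The transmitter identities compared below were also called from expression in these nuclei. How far that shaped their results was not tested.

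SCN3A and SCN8A carried most of the sodium channel signal. Of the 35437 UMIs, 16874 (47.6%) came from SCN3A, 11904 (33.6%) from SCN8A, 3167 (8.94%) from SCN2A, 1757 (4.96%) from SCN11A, 831 (2.35%) from SCN1A and 804 (2.27%) from SCN9A. SCN10A had 62 UMIs and SCN4A 38, and these 2 genes passed the filter on low counts in none of the comparisons below, leaving 6 of 8 members in all but those of Progenitor 1 alone, which had 5. Enteric neurons held 86.0% of the SCN2A UMIs, 79.6% of those of SCN9A, 74.4% of SCN3A and 65.7% of SCN8A. SCN11A was split more evenly, with 52.2% in neurons. SCN1A went the other way, with 20.5% in neurons and 74.2% in Progenitor 2, as did the few UMIs of SCN4A with 18.4% and 52.6%.

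In enteric neurons SCN3A, the embryonic channel, stood at 231.9 and 229.3 CPM in the control samples and 226.3 and 206.3 CPM in the PP121 samples, a mean of 223 ± 11.7 CPM (SD, n = 4). SCN8A, the channel of mature nodes and initial segments, stood at 129, 141, 139 and 168 CPM in the 4 samples. The SD of SCN8A was 16.5 CPM, and both of its day 38 values were above both day 42 values. SCN2A stood at 59.4 and 53.8 CPM in the controls and 39.7 and 38.1 CPM in the PP121 samples, so its groups did not overlap. SCN11A, the persistent-current channel of sensory and enteric neurons, stood at 14.7 and 12.7 CPM in the controls and 20.6 and 17.2 CPM with PP121, again without overlap but in the other direction. SCN9A, a channel of sensory, sympathetic and enteric neurons, stood at 11.4, 14.97, 8.91 and 12.3 CPM in the same order. Its groups overlapped, and both day 38 samples were above both day 42 samples. SCN1A was near the bottom with 3.85, 2.89, 2.91 and 1.83 CPM. SCN10A, the nociceptor channel, gave 0.317, 0.180, 0.594 and 0.800 CPM from 25 UMIs. SCN4A, the muscle channel, gave 7 UMIs in all neurons and none in the 1250 neurons of control replicate 2.

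**Figure D1:**
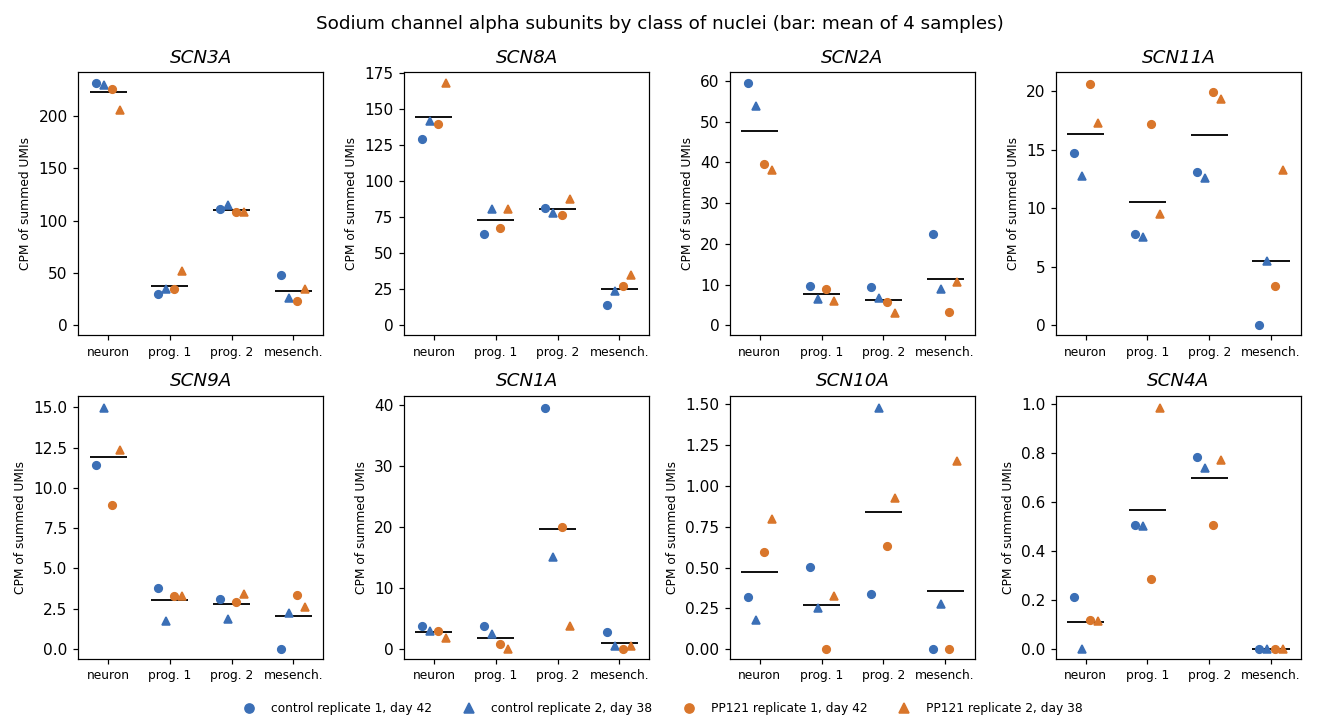
CPM of each of the 8 sodium channel genes in neurons, Progenitor 1, Progenitor 2 and mesenchymal nuclei, with 1 point for each sample (circles day 42, triangles day 38, blue control, orange PP121) and a bar at the mean of the 4 samples. SCN3A and SCN8A stand highest in neurons, at 206.3 to 231.9 and 129 to 168 CPM, and SCN1A stands higher in Progenitor 2 (3.86 to 39.5 CPM) than in neurons (1.83 to 3.85 CPM).

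Levels of different genes were set side by side per length, by gene span and by exon length, because use of introns in the counting was not given. Whether counts in these libraries grow with length was not tested. Divided by gene span, the neuronal levels were 1.92 ± 0.100 CPM per kb for SCN3A, 0.648 ± 0.0741 for SCN8A, 0.242 ± 0.0532 for SCN2A, 0.156 ± 0.0325 for SCN11A and 0.0658 ± 0.0139 for SCN9A (SD, n = 4). SCN1A had 0.0174, SCN10A 0.00396 and SCN4A 0.00323 CPM per kb. SCN2A and SCN11A overlapped over the samples, with 0.193 to 0.301 against 0.121 to 0.197 CPM per kb, as did SCN10A and SCN4A. The other neighbours in this order did not overlap. Divided by exon length the order was the same, from 24.2 CPM per kb for SCN3A through 11.1 for SCN8A and 5.09 for SCN2A to 2.12 for SCN11A. On that scale SCN2A and SCN11A did not overlap, with 4.07 to 6.34 against 1.65 to 2.68 CPM per kb.

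Per nucleus the channels were sparse. After each nucleus was thinned to 2000 UMIs, SCN3A was found in 32.6%, 33.2%, 32.3% and 29.7% of the neurons of the 4 samples. In mesenchymal nuclei the same measure gave 2.22% to 6.06%, at a median depth before thinning of 7227 to 8401 UMIs against 7210 to 8102 in neurons. The highest of these shares was 2 of 33 nuclei, and the samples with 405 and 420 mesenchymal nuclei gave 2.22% and 5.24%. SCN8A was found in 21.2% to 27.4% of neurons against 0 to 5.48% of mesenchymal nuclei. SCN2A was found in 9.43% and 8.98% of control neurons and 6.37% and 6.88% of PP121 neurons, against 0 to 5% of mesenchymal nuclei. That 5% was 2 of 40 nuclei, and the samples with 405 and 420 mesenchymal nuclei gave 1.98% and 1.67%. The lower SCN2A share with PP121 gave an exact two-sided permutation p of 0.333, the smallest that 2 samples against 2 allow, and an adjusted p of 0.667 over the members. SCN9A was found in 1.88% to 3.29% of neurons and 0 to 0.476% of mesenchymal nuclei, and SCN11A in 1.76% to 3.59% and 0 to 1.67%. Progenitor 2 was closer to neurons than the mesenchymal nuclei were. SCN11A was found there in 2.00%, 2.22%, 4.00% and 3.76% of nuclei, against 2.88%, 1.76%, 3.41% and 3.59% of neurons. SCN3A was found in 17.2% to 19.4% of Progenitor 2 nuclei, below its neuronal shares. Before thinning SCN3A was found in 62.9% to 66.8% of neurons, SCN8A in 52.9% to 60.8% and SCN2A in 16.9% to 26.9%. Of the thinned neurons 45.2% to 46.8% held none of the 8 genes, 40.3% to 41.4% held 1, 10.97% to 12.0% held 2 and 1.04% to 2.36% held 3 or more. Of Progenitor 2 nuclei 65.4% to 67.1% held none, and of Progenitor 1 nuclei 79.3% to 82.5%.

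The progenitor classes kept a different balance of channels. In Progenitor 2 SCN3A stood at 108 to 115 CPM, and the ratio of neurons to Progenitor 2 within a sample was 1.91 to 2.08. In Progenitor 1 SCN3A lay between 30.1 and 51.6 CPM, a ratio of 4.00 to 7.71, and SCN8A was the leading member by CPM with 62.9 to 80.8. Neurons held 1.59 to 2.09 times the SCN8A level of either progenitor class and 4.42 to 13.002 times its SCN2A level. SCN11A was close to its neuronal level in Progenitor 2, with 13.1, 12.6, 19.9 and 19.3 CPM in the 4 samples. With SCN10A it made the serine-codon, tetrodotoxin-resistant part of the family. That pair gave 2.83% to 4.84% of all member UMIs in neurons, 5.19% to 8.93% in Progenitor 2 and 5.78% to 12.97% in Progenitor 1. REST, the repressor that silences neuronal genes including sodium channels outside neurons, stood at 27.1 to 33.8 CPM in neurons and at 91.0 to 150 CPM in the progenitor classes.

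SCN1A was highest in Progenitor 2. It gave 353, 81, 158 and 25 UMIs, or 39.5, 14.99, 19.9 and 3.86 CPM, in the 4 samples. Each of these values was above the neuronal value of the same sample, with a ratio of neurons to Progenitor 2 of 0.0975 to 0.473. The sparse SCN10A and SCN4A were also lower in neurons than in Progenitor 2 of every sample. The UMIs of control replicate 1 came from 193 of 1155 nuclei, and its 10 richest nuclei held 19.0% of them, whereas in PP121 replicate 2 the 10 richest held 88.0%. After thinning SCN1A was found in 5.92% (95% exact binomial interval 4.63 to 7.45) of the Progenitor 2 nuclei of control replicate 1 and in 0.588% (0.191 to 1.37) of those of PP121 replicate 2, intervals that cover counting error only. The mesenchymal share was 1 of 40, 2 of 405, 0 of 33 and 0 of 420 nuclei. In Progenitor 1 SCN1A stood at 3.79, 2.51, 0.854 and 0 CPM, the last being 0 of 498 thinned nuclei, which allows a share of nuclei with a UMI of up to 0.602% (3 counts). By the authors' cell-cycle calls, Progenitor 2 nuclei of control replicate 1 had 45.0 CPM of SCN1A in G1, 28.4 in S and 46.6 in G2M, so the signal was present in every phase.

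The annotated neuronal subtypes differed far more in SCN2A and SCN9A than in SCN8A. Subtypes were named separately in control (EN 1 to EN 8) and PP121 (EN A to EN I) neurons, so each was read on its own side, over the 31 sums of subtype and sample that held at least 20 nuclei. SCN2A had a median of 42.6 CPM over these sums. It reached 108 and 131 CPM in EN 8 of control replicates 1 and 2, 130 and 122 CPM in EN 5, and 103 and 106 CPM in EN 4. In the PP121 samples it was highest in EN H with 82.4 and 66.9 CPM, EN E with 80.5 and 68.3 CPM and EN I with 84.6 and 36.8 CPM. At the other end EN C had 30.0 and 0 CPM (0 UMIs in 36 nuclei), EN F 0.993 and 1.13 CPM, EN B 6.04 and 28.9 CPM and EN 2 16.6 and 12.9 CPM. Nitrergic neurons, described next, made up 73.7% and 28.0% of EN 8, 55.7% and 43.4% of EN 5, 41.4% and 41.3% of EN 4 and 71.7% and 65.5% of EN E nuclei, but 24.5% and 10.3% of EN H and 25.6% and 18.2% of EN I. EN D of PP121 replicate 1 was 43.0% nitrergic and had 42.2 CPM of SCN2A, near the median.

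SCN9A was also uneven. EN 4 held 46.5 and 63.0 CPM, EN 8 held 29.6 and 18.7 CPM and EN 5 held 23.6 and 7.26 CPM. Among the PP121 subtypes EN D of replicate 1 held 31.7 CPM and EN A held 20.0 and 22.3 CPM, against a median of 7.26 CPM. EN E, rich in SCN2A, had only 1.86 and 10.8 CPM of SCN9A from 3 UMIs each. SCN3A ran from 104 CPM in EN F of PP121 replicate 2 to 366 CPM in EN 4 of control replicate 2, with a median of 237.6 CPM. EN F was thus the subtype lowest in SCN3A and nearly without SCN2A. SCN8A stayed between 85.0 and 184 CPM over all 31 sums, with a median of 141 CPM. SCN11A ran from 4.04 CPM (3 UMIs, EN 8 of control replicate 1) to 36.7 CPM (EN F of PP121 replicate 1). SCN1A ran from 0 to 9.91 CPM, the latter being 11 UMIs in EN 6 of control replicate 1.

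**Figure D2:**
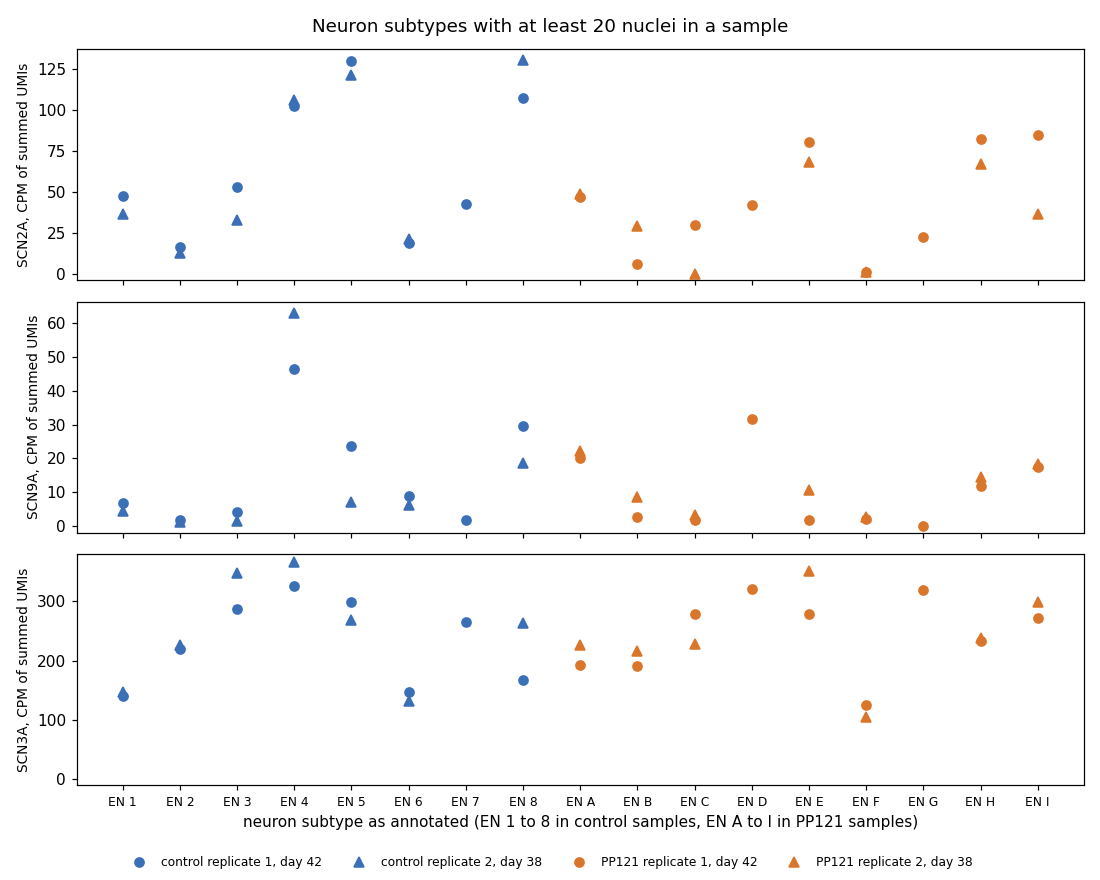
CPM of SCN2A, SCN9A and SCN3A in each neuronal subtype that held at least 20 nuclei in a sample, with control subtypes EN 1 to EN 8 in blue and PP121 subtypes EN A to EN I in orange, and 1 point for each sample (circles day 42, triangles day 38). SCN2A exceeds 100 CPM in EN 4, EN 5 and EN 8 and is near 1 CPM in EN F, and SCN9A is highest in EN 4 with 46.5 and 63.0 CPM.

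Nitrergic neurons, which make nitric oxide and relax gut muscle, had more SCN2A and SCN9A than the other neurons of the same sample. The authors called this identity from NOS1 and a nitric oxide gene module after imputation, and it covered 19.6%, 18.6%, 19.0% and 9.95% of typed neurons, or 449, 230, 358 and 91 nuclei. Typed neurons are those with an identity call, 2285, 1234, 1887 and 915 of the 2301, 1250, 2030 and 976 enteric neurons. The 236 neurons without a call entered no identity or subtype result. More of them were PP121 neurons, and the part of this unequal loss was not tested. SCN2A stood at 121.8 CPM in nitrergic against 44.1 CPM in other neurons of control replicate 1, 108.1 against 42.6 in control replicate 2, 88.6 against 30.3 in PP121 replicate 1 and 102.2 against 29.6 in PP121 replicate 2. Every nitrergic value was above every other value. The means were 105 ± 13.8 and 36.7 ± 7.76 CPM (SD, n = 4), a log2 fold change of 1.57 (SE 0.105, adjusted p 1.116e-06, edgeR with the sample as a block and Benjamini-Hochberg adjustment over all genes). SCN9A stood at 30.9 against 6.70, 37.1 against 10.3, 21.0 against 6.48 and 30.2 against 10.6 CPM in the same order, also without overlap. It rose by 1.90 on the log2 scale (SE 0.158, adjusted p 5.449e-06, edgeR). SCN1A rose as well, with 5.11 against 3.45, 5.08 against 2.35, 7.12 against 0.938 and 6.96 against 1.27 CPM, but from 57 and 93 UMIs in all. Its log2 difference of 1.61 (SE 0.419, adjusted p 0.02382, edgeR) lost its call without control replicate 2 (adjusted p 0.0596) and without PP121 replicate 1 (adjusted p 0.1792).

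These 3 members were called of the 6 tested, beside 11.7% of all genes tested. The remaining 3 were not called. SCN3A stood at 231 against 232 and 246 against 230 CPM in the controls and at 290 against 219 and 317 against 198 CPM with PP121, a log2 difference of 0.34 (SE 0.114, edgeR adjusted p 0.07594). SCN8A differed by -0.06 (SE 0.084, adjusted p 0.7251, edgeR) and SCN11A by -0.25 (SE 0.156, adjusted p 0.3589, edgeR), both lower in nitrergic neurons of 4 of 4 samples. The median log2 difference was 0.95 over the members and -0.0053 over all genes.

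The identity rests on imputed values, in which a nucleus can borrow signal from other genes. Nuclei were therefore also split by a measured NOS1 UMI, a choice made after seeing the data, which left 52, 30, 39 and 18 positive nuclei with median depths of 7949 to 10520 UMIs, each above the other neurons of its sample. SCN9A stood at 24.0 against 11.1, 65.5 against 13.6, 18.0 against 9.29 and 30.0 against 12.3 CPM in that split. It rose by a log2 of 1.43 (SE 0.353, edgeR adjusted p 0.01261) and SCN2A by 0.80 (SE 0.215, edgeR adjusted p 0.03011), 2 members beside 0.955% of all genes. SCN1A was not called there (1.54, edgeR adjusted p 0.5482).

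**Figure D3:**
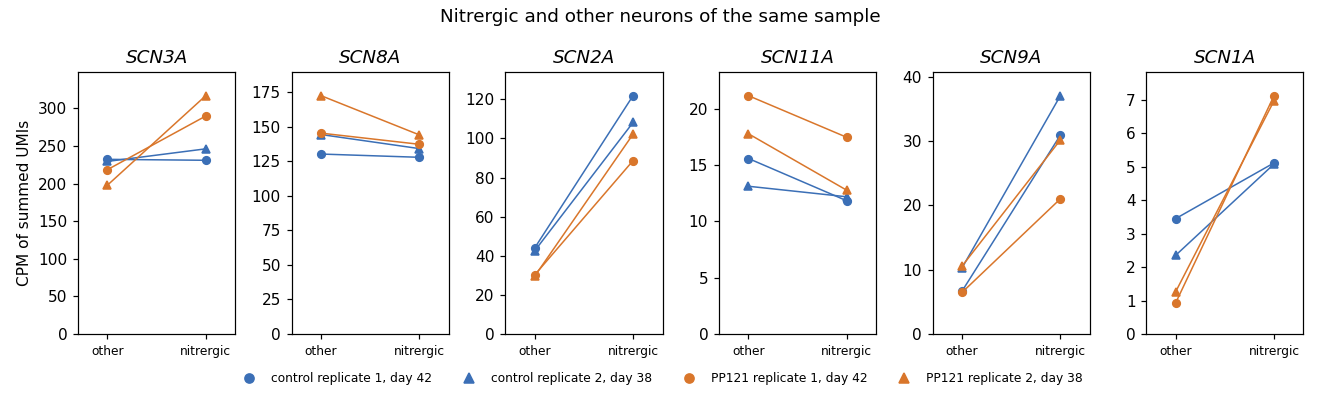
CPM of the 6 tested sodium channel genes in nitrergic neurons and in the other neurons, with a line joining both values of each of the 4 samples (circles day 42, triangles day 38, blue control, orange PP121) and each axis starting at 0. The lines of SCN2A (44.1 to 121.8 CPM in control replicate 1) and SCN9A rise steeply in all 4 samples, and those of SCN8A and SCN11A slope down.

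Among the other transmitter identities, SCN3A was called in cholinergic and GABAergic neurons. SCN2A was called in cholinergic, glutamatergic and catecholaminergic neurons, and SCN9A in GABAergic neurons. A neuron could carry several identities, so the comparisons share nuclei. Of nitrergic neurons 7.69% to 14.2% were also cholinergic, against 10.4% to 38.7% of the other neurons. For the glutamatergic identity these shares were 15.4% to 41.8% against 27.3% to 68.8%. The part of this overlap in the SCN2A values was not tested. A split by a measured UMI was made for the nitrergic identity only. In cholinergic neurons, the excitatory class that contracts gut muscle, SCN3A stood at 273.3 against 211.1, 305.7 against 212.8, 254.0 against 222.8 and 325.4 against 198.1 CPM. It rose by a log2 of 0.51 (SE 0.081, edgeR adjusted p 9.578e-04). SCN2A went down in the same neurons, from 54.2 ± 11.7 to 32.5 ± 10.7 CPM (SD, n = 4), a difference of -0.68 on the log2 scale (SE 0.119, edgeR adjusted p 0.001947) seen in 4 of 4 samples. These were 2 of the 6 members tested, beside 11.5% of all genes.

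In glutamatergic neurons SCN2A stood at 34.8 against 68.4, 42.4 against 66.7, 38.7 against 45.0 and 30.3 against 55.3 CPM. It fell by 0.69 on the log2 scale (SE 0.115, edgeR adjusted p 0.001734), the only member called beside 14.9% of all genes. In GABAergic neurons SCN3A stood at 267.6 against 197.9, 278.6 against 214.1, 254.7 against 214.7 and 264.7 against 199.4 CPM, with no overlap. It rose by a log2 of 0.45 (SE 0.061, edgeR adjusted p 0.001137), beside 7.85% of all genes called. SCN9A was the second member called there, at 9.67 against 13.2, 2.56 against 20.2, 2.45 against 15.8 and 4.29 against 14.5 CPM. It fell by 1.54 on the log2 scale (SE 0.351, edgeR adjusted p 0.02207), by 2.52 without control replicate 1, and the call was lost without control replicate 2 (adjusted p 0.1349) and without PP121 replicate 1 (adjusted p 0.1337).

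Catecholaminergic neurons had more SCN2A, with 62.0 against 58.9, 73.7 against 43.2, 49.0 against 38.8 and 47.3 against 29.8 CPM, an increase of 0.44 on the log2 scale (SE 0.115, edgeR adjusted p 0.04897) beside 4.8% of all genes called. Without control replicate 2, PP121 replicate 1 or PP121 replicate 2 the adjusted p was 0.3343, 0.123 and 0.1348. No member was called in serotonergic neurons, beside 10.7% of all genes, and the smallest adjusted p in edgeR was 0.1995 for SCN3A with a log2 difference of 0.19. SCN8A differed by -0.06 to 0.15 and SCN11A by -0.25 to 0.28 on the log2 scale over the 6 identities, and neither was called in any of them.

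The identity calls leaned on the sample block, which compares neurons within a sample. Without it, edgeR called 3.55%, 1.99%, 0.696%, 2.21%, 0.00554% and 0.105% of all genes for the nitrergic, cholinergic, glutamatergic, GABAergic, serotonergic and catecholaminergic identities, and 2, 1, 0, 1, 0 and 0 members. The calls that held without the block were SCN2A (adjusted p 7.261e-04) and SCN9A (0.002825) in nitrergic neurons and SCN3A in cholinergic (0.04238) and GABAergic neurons (0.03617). SCN1A in nitrergic neurons had an adjusted p of 0.06017, SCN2A had 0.1725 in cholinergic, 0.07287 in glutamatergic and 0.7023 in catecholaminergic neurons, and SCN9A had 0.05838 in GABAergic neurons, all in edgeR without the block and in the same direction.

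**Figure D4:**
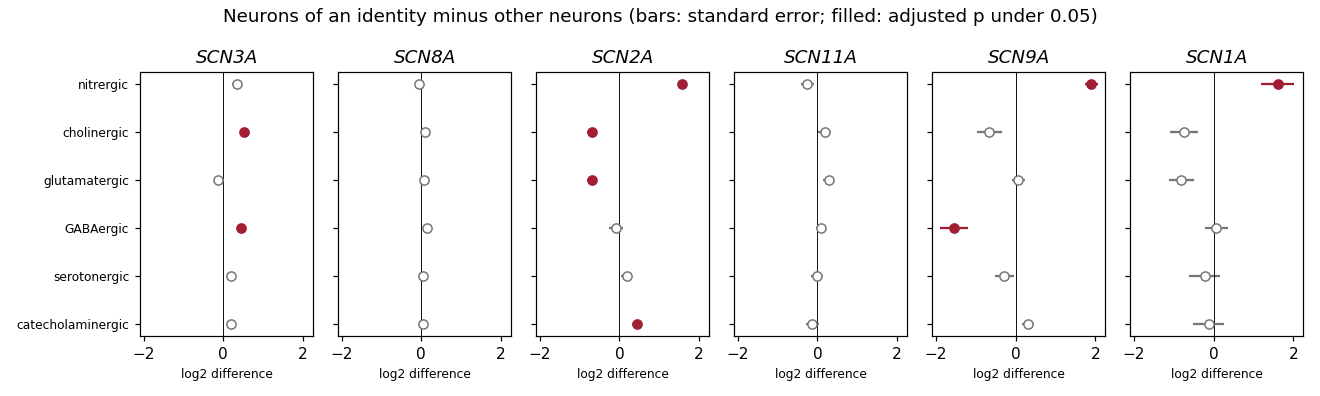
Log2 difference between neurons with and without each of the 6 transmitter identities for the 6 tested sodium channel genes, from edgeR with the sample as a block. Bars are the SE and filled points passed an adjusted p of 0.05: SCN2A runs from 1.57 in nitrergic to -0.69 in glutamatergic neurons, SCN9A from 1.90 in nitrergic to -1.54 in GABAergic neurons, and SCN8A stays close to 0.

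The proteins that place and tune these channels were read from a list of 20 genes, of which 18 were tested in the neuronal comparisons. The list holds the beta subunits, the ankyrin and spectrin scaffold of the axon initial segment, the FGF-homologous factors that bind the channel tail, and regulators of trafficking and transcription. By CPM, ANK3, the ankyrin G gene that anchors sodium channels, had 926 ± 105 in neurons (SD, n = 4), FGF13 had 576, NRCAM 382 and FGF14 382. Of the beta subunits SCN3B had 51.6 ± 9.11 CPM, whereas SCN2B had 0.403 and SCN4B 0.283 CPM.

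In nitrergic neurons 8 of the 18 rose and none fell, beside 11.7% of all genes called: FGF12 by a log2 of 1.39 (SE 0.126, edgeR adjusted p 1.122e-05), SPTBN4, the spectrin of initial segments and nodes, by 1.36 (SE 0.125, edgeR adjusted p 1.295e-05), the leak channel NALCN by 1.19, ANK3 by 0.89, the adhesion molecule CNTN1 by 0.73, SCN3B by 0.68, FGF14 by 0.58 and the ubiquitin ligase NEDD4L by 0.30. In glutamatergic neurons, a comparison that shares nuclei with the former, FGF14 fell by 0.88, SPTBN4 by 0.77, FGF12 by 0.70, NALCN by 0.64, CNTN1 by 0.58 and NEDD4L by 0.20, and NFASC, the neurofascin of initial segments, rose by 0.22, which made 7 of 18 beside 14.9% of all genes. In cholinergic neurons 5 rose, led by FGF14 with 1.01 and NRCAM with 0.68, and ANK3 and CNTN1 fell by 0.34 and 0.37, 7 of 18 beside 11.5%. In GABAergic neurons FGF14 (0.78), NRCAM (0.73) and NEDD4L (0.37) rose and ANK3 fell by 0.35, 4 of 18 beside 7.85%. In serotonergic neurons FGF14 rose by 0.48, while S100A10, which carries SCN10A to the membrane, fell by 1.24 and NEDD4 by 0.66, 3 of 18 beside 10.7%. The S100A10 call lay at the threshold (edgeR adjusted p 0.04999), and the gene had only 176 UMIs in all neurons. In catecholaminergic neurons ANK3 rose by 0.65 and REST fell by 0.62, 2 of 18 beside 4.8%. These counts depend on the sample block: without it edgeR called 5 of 18 in nitrergic (FGF12, SPTBN4, NALCN, ANK3 and SCN3B), 2 in cholinergic and 2 in GABAergic neurons (FGF14 and NRCAM in both) and 0 in the other 3 identities.

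The comparison of PP121 with control asks what the early inhibitor pulse left behind in the channels weeks later. Without a block for the replicate number, no member and no other gene was called in enteric neurons (0 of 21243 by edgeR, 2549 at an unadjusted p under 0.05, and 102 by DESeq2), in progenitors (0 of 20260, 962 and 43) or in nitrergic neurons (0 of 15239, 2131 and 131), and DESeq2 called no member. With the replicate number as a block, the members below were called.

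SCN2A and SCN11A moved apart in neurons under the replicate block, beside 14.8% of all genes called. SCN2A, at 59.4 and 53.8 CPM in control against 39.7 and 38.1 CPM in PP121 neurons, fell by 0.50 on the log2 scale (SE 0.113, blocked edgeR fit, adjusted p 0.002892, and 0.3768 without the block). Control exceeded PP121 by 1.497 times at day 42 and 1.41 times at day 38. SCN11A, at 14.7 and 12.7 against 20.6 and 17.2 CPM, rose by 0.50 (SE 0.154, blocked edgeR fit, adjusted p 0.02628, and 0.3776 without the block), with ratios of PP121 to control of 1.40 and 1.36 within the days. SCN3A differed by -0.05 (SE 0.122, adjusted p 0.8801, edgeR without the block). The groups did not overlap for 3 of the 6 members, beside 45.1% of all genes tested.

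Nitrergic neurons were also fitted alone, and whether the PP121 differences there depart from those of all neurons was not tested. SCN2A differed there by -0.18 (blocked edgeR fit, adjusted p 0.5361), with 121.8 and 108.1 CPM in control against 88.6 and 102.2 CPM with PP121. SCN3A, at 231 and 246 CPM in control and 290 and 317 CPM in PP121 nitrergic neurons, rose by a log2 of 0.46 (SE 0.131, blocked edgeR fit, adjusted p 0.007256, and 0.2607 without the block), the member called beside 10.5% of all genes. For all 6 tested members the control and PP121 values did not overlap in nitrergic neurons, 4 higher and 2 (SCN2A and SCN9A) lower with PP121, beside 49.5% of all genes. That nitrergic neurons made up 9.95% of PP121 replicate 2 and 18.6% to 19.6% of the other samples stands beside these values.

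In progenitors SCN1A fell. The 2 classes together gave -1.57 on the log2 scale (SE 0.251, adjusted p 9.946e-05 by edgeR with the replicate block), beside 1.72% of all genes called. Without the block they gave -1.47 (SE 0.560, edgeR adjusted p 0.953). The 4 samples held 586, 608, 1197 and 501 Progenitor 1 nuclei and 1155, 683, 1107 and 855 Progenitor 2 nuclei. The part of this mix in the pooled values, here and for the day below, was not tested. Progenitor 2 fitted alone, an alternative chosen after seeing the data, gave -1.26 (SE 0.207, blocked edgeR fit, adjusted p 8.492e-06) for SCN1A and 0.64 (SE 0.202, edgeR adjusted p 0.03883) for SCN11A, beside 6.71% of all genes. SCN11A stood there at 13.1 and 12.6 CPM in control and 19.9 and 19.3 CPM in PP121 samples, 1.52 and 1.53 times control within the days. Progenitor 1 alone gave no call among the 5 members tested, beside 3.69% of all genes. The SCN1A groups overlapped across the days, since control replicate 2 lay below PP121 replicate 1. Groups did not overlap for 1 of 6 members in the progenitors together (SCN11A, beside 28.6% of all genes), 3 of 6 in Progenitor 2 (beside 40%) and 1 of 5 in Progenitor 1 (beside 28%). The control to PP121 ratio of SCN1A in Progenitor 2 was 1.98 at day 42 and 3.88 at day 38. Leaving out single samples moved the log2 fold change without the block from -0.56 (without control replicate 1) to -2.80 (without PP121 replicate 1, edgeR adjusted p 0.04886), so its size rested on those libraries. The difference between the PP121 effects in neurons and progenitors was not called for SCN1A (log2 1.00, SE 0.486, blocked edgeR fit, adjusted p 0.7179) or for any gene (0 of 21787, 709 at an unadjusted p under 0.05 and 0 by DESeq2).

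The same gene followed the day. With treatment as a block SCN1A was higher at day 42 than at day 38 by a log2 of 1.64 in progenitors (SE 0.254, edgeR adjusted p 4.055e-05, beside 2.99% of all genes) and of 1.70 in Progenitor 2 alone (SE 0.212, edgeR adjusted p 1.014e-08, beside 4.81%). Progenitor 1 had no member called, beside 14.6%. Leaving out single samples moved the SCN1A value of the progenitors in the fit with no block from 0.73 (without control replicate 1) to 2.79 (without control replicate 2, edgeR adjusted p 0.01952). The days did not overlap for 3 of 6 members in the progenitors together (beside 45.9% of all genes), for SCN1A in Progenitor 2 (beside 37.6%) and for 3 of 5 in Progenitor 1 (beside 54.5%). No member was called for the day in neurons, beside 9.49% of all genes, and the days did not overlap for 3 of 6 members, beside 39%. SCN9A came closest, lower at day 42 with a log2 difference of -0.49 (edgeR adjusted p 0.07894), before SCN8A with -0.26 (edgeR adjusted p 0.07975). Without the block no gene was called for the day in neurons (1574 at an unadjusted p under 0.05, 59 by DESeq2) or progenitors (2248 and 106) by edgeR.

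**Figure D5:**
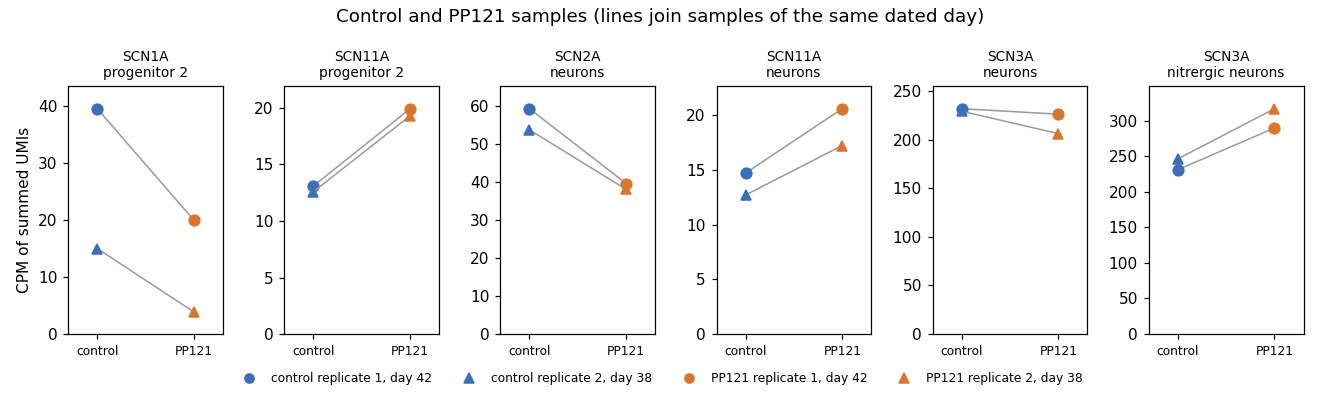
CPM in control and PP121 samples of SCN1A and SCN11A in Progenitor 2, SCN2A, SCN11A and SCN3A in enteric neurons and SCN3A in nitrergic neurons, with a line joining the samples of the same day (circles day 42, triangles day 38) and each axis starting at 0. SCN1A goes from 39.5 to 19.9 CPM at day 42 and from 14.99 to 3.86 CPM at day 38, and SCN3A slopes down in all neurons but up in nitrergic neurons.

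Among the associated genes PP121 called 0 of 18 in neurons without the block. With it, FGF13 (0.51), FGF11 (0.51), NFASC (0.38) and ANK3 (0.27) rose in neurons and FGF12, NEDD4 and CNTN1 fell by 0.65, 0.61 and 0.57 on the log2 scale, 7 of 18 beside 14.8% of all genes. In nitrergic neurons FGF14 (0.72), FGF13 (0.60), NALCN (0.59), ANK3 (0.56) and NEDD4L (0.50) rose of 17 tested and none fell, beside 10.5%. In Progenitor 2 FGF13 (0.57) and FGF14 (0.44) rose and NEDD4 fell by 0.54, 3 of 18 beside 6.71%. In Progenitor 1 FGF14 (0.92), ANK3 (0.73) and DPYSL2 (0.70) rose, 3 of 16 beside 3.69%. For the day with treatment as a block, FGF14 (0.52), FGF12 (0.50), SPTBN4 (0.43), SCN3B (0.35) and CNTN1 (0.30) were higher in neurons at day 42 and NFASC was lower with -0.30, 6 of 18 beside 9.49%, and in progenitors SCN3B was higher by 0.90, 1 of 18 beside 2.99%. In Progenitor 2 SCN3B (0.93), SPTBN4 (0.83), NEDD4 (0.57) and CNTN1 (0.52) were higher at day 42 and FGF13 (-0.42) and REST (-0.41) lower, 6 of 18 beside 4.81%. In Progenitor 1 NEDD4L (-0.72), REST (-0.62), NRCAM (-0.61), ANK3 (-0.61) and DPYSL2 (-0.51) were lower at day 42, 5 of 16 beside 14.6%.

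Transcripts annotated across these loci were read beside the members. SCN1A-AS1, annotated across SCN1A and SCN9A, stood at 48.9, 20.9, 32.8 and 9.73 CPM in Progenitor 2 of the 4 samples, in the order of SCN1A itself. It fell with PP121 in Progenitor 2 under the replicate block by 0.74 on the log2 scale (SE 0.172, edgeR adjusted p 0.002309) and was higher at day 42 by 1.40 (SE 0.175, edgeR adjusted p 1.133e-08). In nitrergic neurons it rose by a log2 of 1.80 (SE 0.111, edgeR adjusted p 6.849e-07) and in GABAergic neurons it fell by 1.36 (SE 0.240, edgeR adjusted p 0.005623), the directions of SCN9A. AC019197.1 (chr2:164840672-165208261, plus strand), which crosses SCN3A and SCN2A, stood at 167 to 175 CPM in neurons. It rose in cholinergic (log2 0.48, edgeR adjusted p 7.099e-04) and GABAergic neurons (0.39, edgeR adjusted p 0.002193), where SCN3A rose, and in nitrergic (0.34, edgeR adjusted p 0.02974) and serotonergic neurons (0.36, edgeR adjusted p 0.03677), where SCN3A was not called. Its part, and that of SCN1A-AS1, in the channel counts was not tested.

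The genes closest to each member were ranked by Pearson's r of log2(CPM + 1), as a description over sums that share libraries and depth. Over the 23 sums of class and sample, the closest were SOX4 for SCN2A (r = 0.906), KIAA1549L for SCN3A (0.897), TRIM67 for SCN8A (0.935), SCRT2 for SCN9A (0.937), ME2 for SCN11A (0.910) and MEF2C-AS2 for SCN1A (0.853), followed by MEF2C (0.833). SOX4 is a transcription factor of young neurons, SCRT2 a neural zinc finger repressor, ME2 a mitochondrial malic enzyme and MEF2C a transcription factor of muscle and neurons. Over the 31 subtype sums, ABLIM3 (0.908), GABBR2 (0.890) and GLRA2 (0.885) lay closest to SCN2A, the latter pair encoding a GABA receptor and a glycine receptor subunit. SCN3A lay closest to the overlapping AC019197.1 (0.900) and to RIMS1 (0.885), a presynaptic active zone protein, and SCN9A to the overlapping SCN1A-AS1 (0.866). SCN8A reached only 0.716 with LINC01361, SCN11A 0.759 with ZNF253 and SCN1A 0.768 with PTCHD1. Between members, SCN8A and SCN9A reached 0.788 over classes, and over subtypes SCN1A and SCN2A reached 0.673 while SCN2A and SCN8A ran opposite with -0.529.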

How the data were processed

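Single-nucleus libraries of 2 control and 2 PP121 samples were analysed. Per the study's methods, reads were pseudoaligned with kallisto and bustools, and the submitters' processing notes name Cell Ranger, Seurat 4.0.4 and GRCh38; use of introns and strand was not given in the sources used here. The authors deposited raw UMI counts per gene and nucleus and a cell metadata table with classes, subtypes, identities, phase and percent mitochondrial reads. No doublet caller was run, and no doublet calling is named in the sources used here. Only nuclei kept in the authors' annotation entered the comparisons. Columns of per-sample values not mapped to a sample numbered 0.

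Counts were summed per sample and class or identity and scaled to CPM of that sum. Tests used edgeR 4.0.16 (quasi-likelihood, R 4.3.3) on all genes that passed filterByExpr, with Benjamini-Hochberg adjustment at 0.05. PP121 and day fits had no block, as main design, and identity fits had the sample as a block. DESeq2 1.42.0, other filters, a marker rule for classes, replicate blocks and leaving out each sample were alternatives. The blocked PP121 and day fits each leave 1 residual degree of freedom, so their spread, and with it their p-values, leans on that shared across genes. The metadata tie the replicate number to a day, and same-numbered samples deviated together (r = 0.4215 over 21243 genes in neurons, 0.2832 over 20260 in progenitors). Nuclei were thinned to 2000 UMIs for shares, which left out 10, 3, 6 and 2 neurons of the 4 samples, and the 95% intervals are exact binomial and cover counting error only. Named genes were all members, a fixed list of associated genes and the 3 genes of highest r for each member with at least 500 UMIs. Some sequences and genes of the lists are not reported here. The members and lists were chosen with earlier results of these data known. The test code was checked on simulated data.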

Additional observations from a re-analysis of the deposited data

Results flagged for a closer look

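Of the members in the 6 identities, 4 differences took one sign in both control samples and the other sign in both PP121 samples, and the difference between treatments was not tested. The share of all genes with such a change of sign was not counted. No background therefore stands beside the 4, and the count is not read as a result about the members. SCN2A in serotonergic minus other neurons had a mean difference of 21.8 CPM in control and -4.93 CPM in PP121 samples. SCN8A in serotonergic minus other neurons had 22.9 and -13.7 CPM. SCN8A in GABAergic minus other neurons had 16.4 and -4.23 CPM. SCN9A in glutamatergic minus other neurons had -1.54 and 3.41 CPM.

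The nuclei that the authors marked as filtered for low quality (4248 and 1816 in the control samples, 2400 and 2030 in the PP121 samples) enter no comparison of the report. There 2 of the 7 members with at least 10 UMIs in all were higher in both PP121 samples than in both control samples, beside 24.7% of 24755 genes, so the count is near the background. SCN11A stood at 9.47 and 9.76 CPM in control and 22.9 and 12.4 CPM in PP121 samples. SCN10A stood at 0.131 and 0.110 CPM in control, from 2 and 1 UMIs, and 1.08 and 1.34 CPM in PP121 samples, from 9 and 8 UMIs.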

How the results depend on the processing

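Of the results that answer a comparison, 137 alternative values matched the reported one, 24 moved and 4 reversed. With the replicate block, which pairs samples of 1 day, the members called for PP121 went from 0 to 2 in neurons, 0 to 1 in progenitors and 0 to 1 in nitrergic neurons, and those for the day from 0 to 1 in progenitors. With classes from the marker rule and the replicate block together, chosen after seeing the data, PP121 called 1 member in neurons and 1 in progenitors; with no filter on low counts it called 1 in progenitors. Without the sample block the members called went from 2 to 1 in cholinergic, 1 to 0 in glutamatergic, 2 to 1 in GABAergic and 1 to 0 in catecholaminergic neurons. With at least 10 counts in every sum GABAergic neurons had 1 and catecholaminergic neurons 0, and with DESeq2 catecholaminergic neurons had 0. Leaving out single samples gave 2 to 4 members in nitrergic, 2 to 2 in cholinergic, 1 to 1 in glutamatergic, 1 to 3 in GABAergic and 0 to 1 in catecholaminergic neurons, and 0 to 1 for PP121 and for the day in progenitors. Over all genes, the calls over the alternatives ran from 0 to 3152 for PP121 in neurons, 0 to 430 in progenitors and 0 to 1594 in nitrergic neurons, from 0 to 2015 and 0 to 1031 for the day in neurons and progenitors, and for nitrergic from 178 to 3041 (2223 as reported), cholinergic 363 to 2933 (2254), glutamatergic 124 to 3560 (2829), GABAergic 414 to 2395 (1567), serotonergic 1 to 3213 (2068) and catecholaminergic neurons 18 to 1669 (876).

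The neuronal SCN3A level was 211 CPM with the marker rule, against 223 CPM. With a pseudocount of 0.1 in place of 1, 11 of the 18 pairs of a member and its closest genes over subtypes were kept. The PP121 minus control difference in the share of neurons with SCN9A was 0.339 points at 2000 UMIs, -0.0315 at 1000 and -0.593 at 4000, and from -0.365 (without PP121 replicate 2) to 1.04 when single samples were left out. For SCN8A it was 2.57 points and from -0.314 (without PP121 replicate 2) to 5.46. The cause was not tested. With 2 samples a group, shares and permutation tests cannot reach the threshold, and SCN4A and SCN10A passed the filter in no comparison reported.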
